A study of Mus musculus with 8 samples.

Results

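This section describes 35 genes of the enzymes that cut extracellular matrix and cell-surface proteins, and of their inhibitors, in whole liver of mice fed a diet that induces non-alcoholic steatohepatitis (NASH). The genes were taken by symbol from the deposited tables, and they fall into 12 matrix metalloproteinases (Mmp), 4 tissue inhibitors of metalloproteinases (Timp), 7 Adam genes, 8 Adamts genes including Adamtsl2, and 4 genes of plasminogen activation (Plat, Plau, Plaur and Serpine2). Of these, 34 stood in at least 1 of the 8 files, among 16796 genes in all, and 31 passed the filter on low counts. The livers came from 4 wild-type mice (WT, mice 164, 165, 166 and 167) and 4 mice lacking E4bp4 in the liver (E4bp4-LKO, mice 143, 144, 145 and 179), all put on the diet at 2 months of age for 20 weeks. The labels number the mice, so that each library was taken as a separate animal, and they name neither the Cre line nor the sex or strain. Values are listed in the order of mouse numbers just given throughout.

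Matrix metalloproteinases are zinc enzymes made as inactive precursors that together cleave collagens, elastin, proteoglycans and other proteases, and Timp proteins bind and block their active sites. Adam proteins are membrane-anchored relatives that release the outer parts of cytokines, growth factors and receptors, while Adamts proteins are secreted and act on proteoglycans, procollagens and microfibrils. The plasminogen activators turn plasminogen, which hepatocytes secrete, into plasmin, a protease that degrades fibrin and can activate some Mmp precursors. In injured liver many of these genes are expressed mainly by stellate cells, macrophages, other leukocytes and endothelial cells, while others, such as Adam9 and Mmp19, are broadly expressed. Fewer cells of a type cannot be told apart from less RNA per cell in these whole-tissue values.

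Levels are in CPM, counts scaled to library size with the trimmed mean of M values (TMM), and levels compared between genes are FPKM, which also divides by transcript length. A log2 fold change (log2FC) above 0 means higher in E4bp4-LKO, and adjusted p values are from edgeR's quasi-likelihood test over 13244 genes unless another tool is named. Libraries held 23805540 to 32290265 counts, so that 3 counts stood for 0.0867 to 0.134 CPM, which covers counting error only. Nfil3, the gene of E4BP4, had means of 12.2 CPM in WT and 4.76 CPM in E4bp4-LKO, without overlap (log2FC -1.35, adjusted p = 0.0121). The 6 hepatocyte markers were all present, at a summed 57650 to 77770 CPM in WT, lowest in WT 164, and 75960 to 93970 CPM in E4bp4-LKO livers. TMM gave factors of 1.16 to WT 164 and 1.09 to WT 165 and of 0.94 to 1.00 to the rest, and WT 164 was the highest WT library for 24 of the 31 tested genes. Values without these 2 libraries are given below beside the genes that passed and beside those whose estimate moved most.

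Of the 31 genes tested, 12 fell and 1 rose in E4bp4-LKO livers, and 18 did not pass. This is 38.7% lower, where 6.48% of all genes tested were called lower, and 3.23% higher, where 4.36% of all genes were called higher. Because the genes were chosen with earlier results of these data known, the contrasts with all genes here are descriptive only. The genes that fell were Mmp12, Mmp13, Mmp24, Timp1, Adam8, Adam12, Adamts4, Adamts9, Adamts10, Adamts12, Plat and Plaur, and the gene that rose was Serpine2. The median log2FC was -0.69 over the 31 genes and 0.01 over all genes tested, and 28 of the 31 estimates lay below 0, against 48.3% of all genes. For 14 of the 31 genes, every E4bp4-LKO liver lay below every WT liver, where 9.69% of all genes did so, and for 1, Serpine2, every E4bp4-LKO liver lay above (8.81% of all genes). Of all genes called, 59.7% were lower. On library totals without TMM, the median of all genes shifted to -0.15 and that of the 31 genes to -0.87, 85.1% of called genes were lower, and 16 of the 31 genes fell and 1 rose, while limma fits on FPKM put 82.1% to 84.7% of called genes lower.

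These counts depend on which livers are kept, as do the counts over all genes. Without WT 164 and 165 together, the genes that fell were 3, Timp1, Adamts9 and Plat, Serpine2 still rose, and the median was -0.35. In that fit 205 of 13377 genes were called lower and 182 higher, against 858 and 578 of 13244 with all 8 libraries. The 12 lower genes became 6 without E4bp4-LKO 144 (271 lower among all genes). They became 7 without E4bp4-LKO 179 (423 among all genes) or WT 165 (372). DESeq2 called 17 of the 31 lower, and 1261 of all genes.

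**Figure D1:**
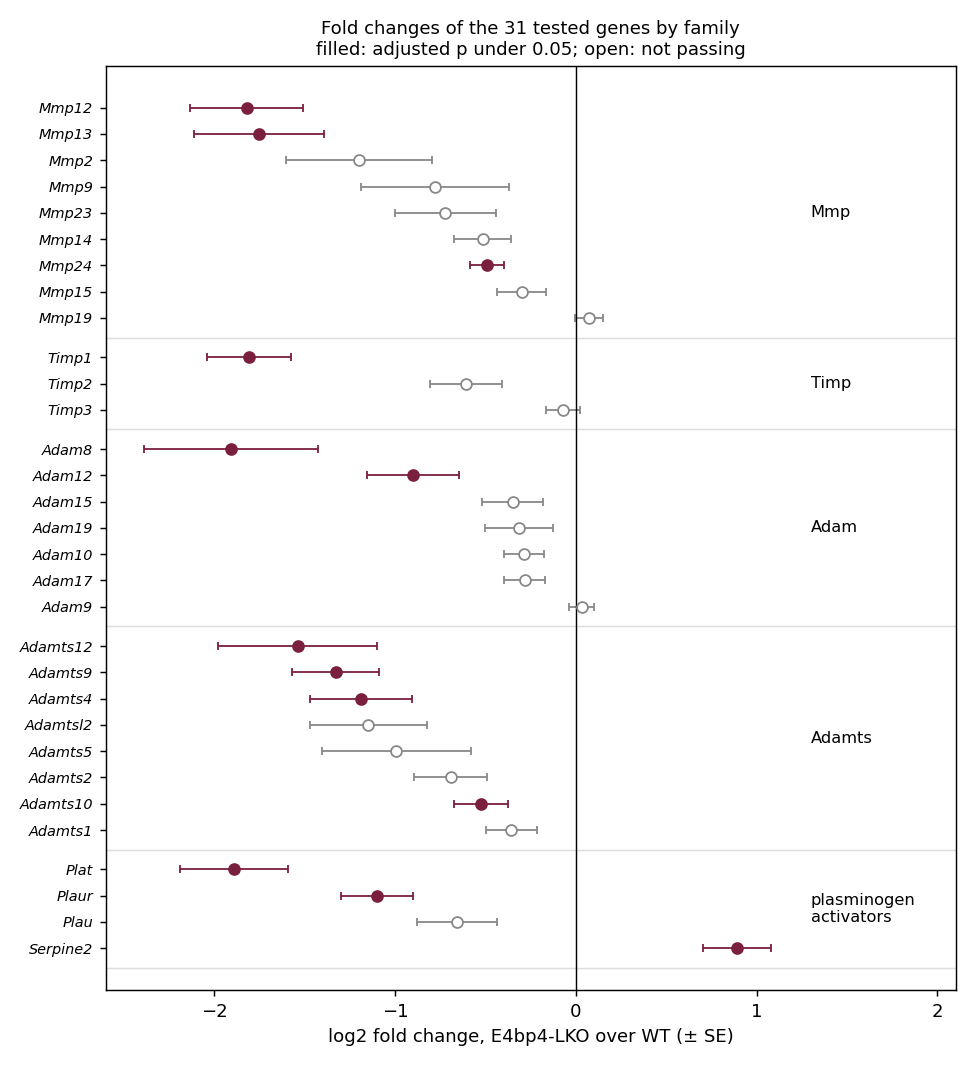
Log2 fold change of E4bp4-LKO over WT (horizontal axis) with its standard error for each of the 31 tested genes, ordered within families. Filled points passed an adjusted p of 0.05, and the 12 filled points left of 0 and 1 right of 0, Serpine2, are the genes named in the text.

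Of the Mmp genes, 5 (Mmp13, Mmp12, Mmp3, Mmp8 and Mmp7, in that order) stand in a run of 10 Mmp genes on mouse chromosome 9 with 0 other protein-coding genes between them in RefSeq's GRCm38.p6 annotation. Promoter stretches are shown for those members of the run that hold the AP-1 motif described here, since Mmp12 and Mmp13 had the largest falls among the tested Mmp genes, and for Plaur, which fell too. RefSeq promoters (250 bases before to 50 after the start, build GRCm38.p6) were found for 25 of the 35 genes. The AP-1 motif is TGACTCA (with its reverse complement TGAGTCA), the binding sequence of Fos and Jun proteins. It stood in 6 of the 30 promoters of these 25 genes and in 5.2% of all 32851 promoters. The 6 belonged to Mmp12, Mmp13, Mmp3, Mmp7, Plaur and Adam19. Of these, Mmp12, Mmp13 and Plaur fell, Adam19 (stretch not shown) did not pass, and Mmp3 and Mmp7 were not tested. Whether the motif has a part in the falls was not tested. In the stretches below, written 5′ to 3′ with the motif in capitals, its first base lay 35 bases upstream of the start in Mmp13, 44 in Mmp12, 46 in Mmp3, 63 in Mmp7 and 69 in Plaur.
Mmp13 (chr9:7272439-7272513, plus strand): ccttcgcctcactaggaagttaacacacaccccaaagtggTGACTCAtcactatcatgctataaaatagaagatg
Mmp12 (chr9:7347290-7347373, plus strand): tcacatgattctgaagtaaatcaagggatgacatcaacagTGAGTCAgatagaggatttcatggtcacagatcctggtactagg
Mmp3 (chr9:7445736-7445821, plus strand): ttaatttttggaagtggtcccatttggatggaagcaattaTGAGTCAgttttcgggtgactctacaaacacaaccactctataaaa
Mmp7 (chr9:7691987-7692073, plus strand): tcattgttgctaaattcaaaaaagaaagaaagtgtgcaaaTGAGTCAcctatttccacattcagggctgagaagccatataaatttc
Plaur (chr7:24462374-24462460, plus strand): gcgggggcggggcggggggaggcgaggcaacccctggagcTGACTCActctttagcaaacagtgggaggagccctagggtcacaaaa

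The D-box forms TTATGTAA (reverse complement TTACATAA) and TTACGTAA, to which E4BP4 binds, stood in 0 of the 30 promoters of the 25 genes and in 1.06% of all promoters. A match is a description of these windows and not a binding site, and the absence of one covers only these letters and these windows.

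Mmp12, the macrophage elastase, measured 72.1, 76.7, 53.1 and 37.5 CPM in WT and 25.0, 18.7, 14.0 and 9.86 CPM in E4bp4-LKO livers. All E4bp4-LKO livers lay below the lowest WT liver. The log2FC was -1.82 (SE 0.31, adjusted p = 0.0121), a level 3.53-fold lower, and it passed whichever single mouse was left out. Without WT 164 and 165 it was -1.41 and did not pass (adjusted p = 0.126).

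Mmp13, the main interstitial collagenase of the mouse, measured 5.67, 6.41, 5.16 and 4.27 CPM in WT and 2.89, 1.02, 1.80 and 0.625 CPM in E4bp4-LKO livers, again without overlap. Its log2FC was -1.75 (SE 0.36, adjusted p = 0.0160). It did not pass without E4bp4-LKO 144 (adjusted p = 0.0543) or without WT 164 and 165 (-1.55, adjusted p = 0.132). The E4bp4-LKO livers spread widely, from 0.625 CPM in mouse 179 to 2.89 CPM in mouse 143.

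The other members of the chromosome 9 run were scarce. Mmp3, a stromelysin, had 13 counts over all 8 libraries and Mmp8, the neutrophil collagenase, had 85, and neither passed the filter on low counts. Mmp7, or matrilysin, an enzyme of epithelial cells, had 66, 15, 8 and 9 counts in WT and 3, 3, 8 and 2 in E4bp4-LKO libraries, and it did not pass the filter either. Of its 114 counts, 66 thus came from WT 164. Without the filter, DESeq2 called Mmp7 lower (adjusted p = 0.0218), while edgeR did not (adjusted p = 0.0742). Mmp27, a neighbour in the run outside the 35 genes, fell from a mean of 3.05 ± 0.82 to 1.60 ± 0.26 CPM (SD, n = 4; log2FC -0.94, SE 0.23, adjusted p = 0.0272), and it did not pass without WT 164 and 165 (adjusted p = 0.192).

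The gelatinases did not pass. Mmp2, made largely by stellate cells and fibroblasts, measured 29.3, 12.6, 9.54 and 12.9 CPM in WT and 4.44, 6.55, 11.2 and 5.89 CPM in E4bp4-LKO (log2FC -1.20, SE 0.40, adjusted p = 0.0925). E4bp4-LKO 145 lay above WT 166, and without WT 164 and 165 the estimate was -0.67. Mmp9, the gelatinase of neutrophils and macrophages, measured 1.17 ± 0.48 and 0.676 ± 0.361 CPM (SD, n = 4; log2FC -0.78, adjusted p = 0.238), with an estimate of -0.32 without WT 164 and 165.

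Among the membrane-type enzymes, Mmp24 fell by a small and even step. It measured 12.6, 13.8, 13.01 and 13.7 CPM in WT and 10.3, 9.62, 8.23 and 9.68 CPM in E4bp4-LKO livers (log2FC -0.49, SE 0.09, adjusted p = 0.0108). WT 164 was the lowest WT liver here, and without WT 164 and 165 the estimate was also -0.49 (adjusted p = 0.0570). Mmp14, the collagenase of the cell surface that activates the Mmp2 precursor together with Timp2, measured 53.2, 38.5, 32.3 and 31.1 CPM in WT and 25.7, 26.9, 30.99 and 25.0 CPM in E4bp4-LKO. The groups did not overlap, by a margin of 31.1 against 30.99 CPM, yet the test did not pass (log2FC -0.51, SE 0.16, adjusted p = 0.0647). With WT 167 left out it did pass (adjusted p = 0.0347), as it did in DESeq2 (adjusted p = 0.0213), but the estimate was -0.32 without WT 164 and -0.22 without WT 164 and 165 (adjusted p = 0.274). Mmp15, another membrane-bound enzyme, measured 96.1 ± 20.6 and 78.2 ± 7.74 CPM (SD, n = 4; log2FC -0.30, adjusted p = 0.178), with an estimate of -0.08 without WT 164 and 165.

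Mmp19, a secreted enzyme of many tissues, was at 65.6 ± 4.79 CPM in WT and 69.1 ± 4.48 CPM in E4bp4-LKO (SD, n = 4; log2FC 0.07, SE 0.08, adjusted p = 0.573), and its sign turned on FPKM (-0.08) and library totals (-0.08). Mmp23, a short membrane-bound enzyme, measured 3.44 ± 0.94 and 2.09 ± 0.86 CPM (log2FC -0.72, adjusted p = 0.119), and it passed without E4bp4-LKO 145 (adjusted p = 0.0404). Of the 9 Mmp genes tested, 3 fell, 0 rose and 6 did not pass, with a median log2FC of -0.72.

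**Figure D2:**
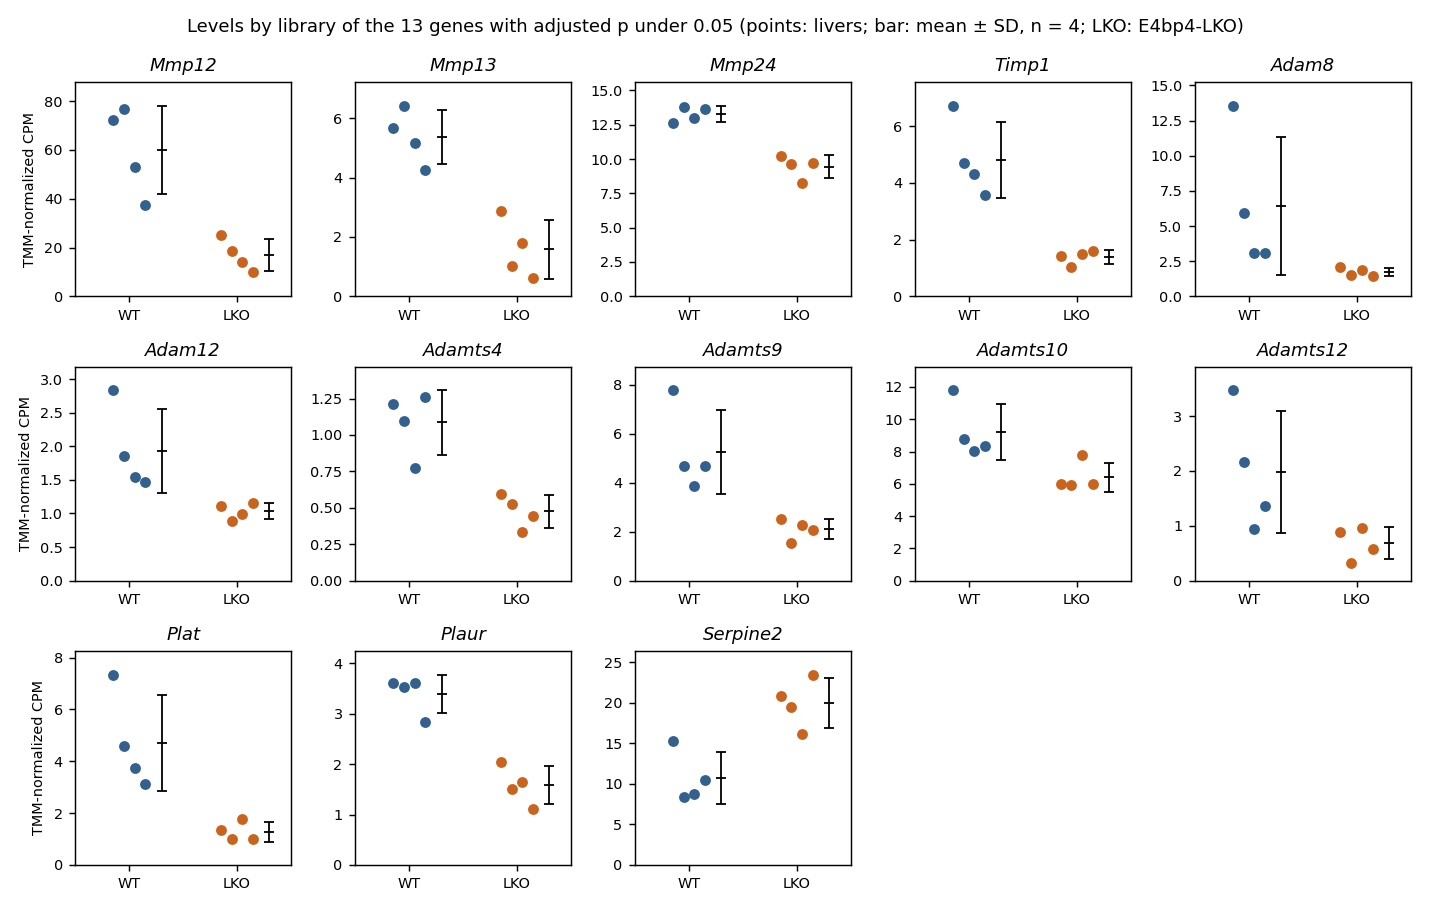
TMM-normalized CPM (vertical axis, from 0) of each liver for the 13 genes with an adjusted p under 0.05, with the mean ± SD of 4 livers beside the points. For 12 of the 13 the groups are separate; for Adamts12, E4bp4-LKO 145 (0.956) lies just above WT 166 (0.947).

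Within the Mmp family the mixture of transcripts differed between the groups. In WT livers Mmp12 made up 13.9% to 23.6% of the summed FPKM of the family, and in E4bp4-LKO livers 4.85% to 11.5%. Mmp19 held 16.4% to 28.6% in WT livers, against 30.5% to 36.2% in E4bp4-LKO, while Mmp14 stayed between 16.1% and 19.1% in all 8 libraries. The summed FPKM of the family was 124.5, 97.0, 76.9 and 72.6 in WT and 57.7, 59.8, 58.7 and 52.6 in E4bp4-LKO. The shares come from values within a library and do not depend on how libraries were scaled to each other, while the summed FPKM do. A lower share of Mmp12 by itself raises the shares of the other genes, and the log2FC of Mmp19 was 0.07.

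**Figure D3:**
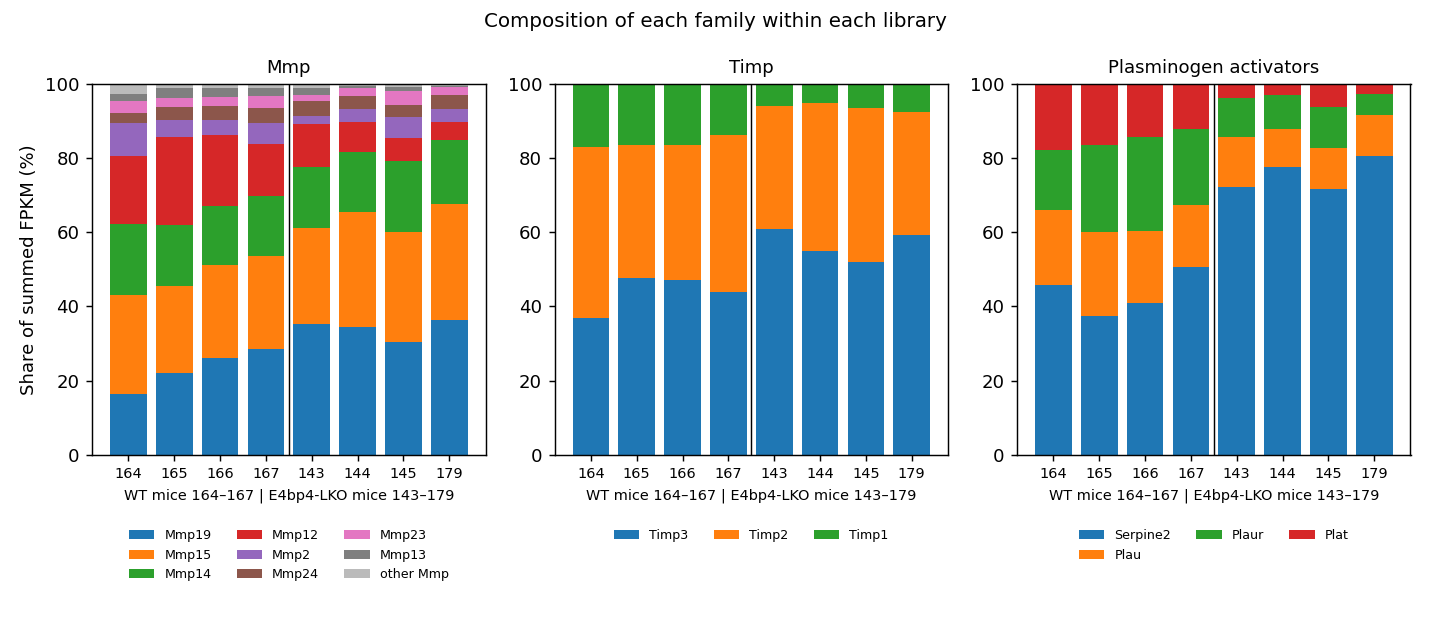
Share of each gene in the summed FPKM of its family (vertical axis, percent) for each of the 8 libraries, with WT left and E4bp4-LKO right of the line. Of the 3 families drawn, Mmp12, Mmp13, Timp1, Plat, Plau and Plaur hold smaller shares in every E4bp4-LKO library than in any WT library, and Mmp19, Timp3 and Serpine2 larger ones. A larger share can follow from falls of other genes in the family alone.

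Of the 4 inhibitors, 3 were tested and 1, Timp1, fell, with a median log2FC of -0.61. This secreted inhibitor, induced in fibrotic liver, measured 6.71, 4.70, 4.31 and 3.57 CPM in WT and 1.41, 1.02, 1.51 and 1.61 CPM in E4bp4-LKO livers. The lowest WT liver was at 3.57 and the highest E4bp4-LKO liver at 1.61 CPM. The log2FC of -1.81 (SE 0.23, adjusted p = 0.00183) had the smallest p of the 31 tested genes and passed without any single mouse and without WT 164 and 165 (-1.51, adjusted p = 0.00783).

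Timp2, the partner of Mmp14, measured 74.6, 42.8, 39.0 and 45.8 CPM in WT and 31.3, 33.2, 39.8 and 28.5 CPM in E4bp4-LKO (log2FC -0.61, SE 0.20, adjusted p = 0.0825). The groups overlapped through E4bp4-LKO 145 and WT 166, and DESeq2 called it lower (adjusted p = 0.0184). With WT 164 far above the other WT livers, the estimate was -0.36 without it and -0.35 without WT 164 and 165 (adjusted p = 0.175). Timp3, which is bound to matrix and blocks Adam17 as well as Mmp enzymes, was at 69.2 ± 7.25 and 65.9 ± 6.44 CPM (SD, n = 4; log2FC -0.07, SE 0.09, adjusted p = 0.677), and its estimate was 0.06 without WT 164 and 165. Timp4 was listed in 0 of the 8 files. As a share of the family's FPKM, Timp1 held 13.8% to 17.2% in WT livers, against 5.11% to 7.73% in E4bp4-LKO, and Timp3 held 36.9% to 47.5% and 51.9% to 60.9%.

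Among the Adam genes, 2 of 7 fell, 0 rose and 5 did not pass, with a median log2FC of -0.31. Adam8, an enzyme of macrophages and granulocytes, measured 13.5, 5.95, 3.09 and 3.11 CPM in WT and 2.07, 1.52, 1.84 and 1.43 CPM in E4bp4-LKO livers. The groups were separate, but WT 164 stood at 3.34 times the mean of the other WT livers. The log2FC was -1.91 (SE 0.48, adjusted p = 0.0376), and without WT 164 and 165 it was -0.85 (adjusted p = 0.0641). It did not pass without WT 165 or without any one of the E4bp4-LKO mice (adjusted p up to 0.103). Adam12, a marker of activated stellate cells and fibroblasts, measured 2.83, 1.86, 1.54 and 1.47 CPM against 1.11, 0.889, 0.992 and 1.16 CPM (log2FC -0.90, SE 0.26, adjusted p = 0.0472). It passed only without WT 166 or 167 among the fits that left out 1 mouse (adjusted p up to 0.126). Its estimate was -0.54 without WT 164 and 165 (adjusted p = 0.2915).

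The sheddases and the other broadly expressed Adam genes did not pass. Adam17, which releases tumour necrosis factor and ligands of the epidermal growth factor receptor, measured 26.0 ± 3.37 and 21.4 ± 2.64 CPM (SD, n = 4; log2FC -0.28, adjusted p = 0.133). Adam10, which cleaves Notch receptors, measured 50.4 ± 6.84 and 41.4 ± 4.77 CPM (log2FC -0.29, adjusted p = 0.117). Adam9 was the highest of the family by FPKM, at 24.8 ± 1.83 and 22.8 ± 1.34, and its log2FC on counts was 0.03 (SE 0.07, adjusted p = 0.802), with the opposite sign on FPKM (-0.12), on library totals (-0.13) and without E4bp4-LKO 179 (-0.0044). Adam15 and Adam19 had log2FC values of -0.35 and -0.31 (adjusted p = 0.199 and 0.312). The strand of the libraries is not given in the sources used here. Exons of Adam17 share 311 bases with Iah1 and those of Mmp19 share 789 bases with Tmem198b on opposite strands. Among the genes that fell, exons of Mmp24 share 637 bases with BC029722 on the opposite strand. Shorter overlaps of this kind were found for Mmp12, Adam8 and Adamts9. The genes overlapping these 4 had 0 counts under their own names. Whether reads from them were counted in Mmp24, Mmp12, Adam8 or Adamts9 was not tested.

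With all 8 libraries the Adamts family had the lowest median of the families, -1.07. Of its 8 genes, 4 were lower, 0 higher and 4 did not pass, and all 8 estimates lay below 0. Without WT 164 and 165 its median was no longer the lowest, and Adamts9 was the only gene of the family to pass. Differences between the families were not tested. Adamts9, a proteoglycan-cleaving enzyme, measured 7.78, 4.70, 3.86 and 4.69 CPM in WT and 2.52, 1.55, 2.28 and 2.05 CPM in E4bp4-LKO livers. The groups were separate and the log2FC was -1.33 (SE 0.24, adjusted p = 0.00911), passing without any single mouse and without WT 164 and 165 (-1.02, adjusted p = 0.0383). Adamts4, an aggrecanase, measured 1.21, 1.10, 0.772 and 1.26 CPM against 0.594, 0.527, 0.331 and 0.446 CPM (log2FC -1.19, SE 0.28, adjusted p = 0.0255). It rested on 187 counts in all and did not pass without WT 164 or 165 or without E4bp4-LKO 144, 145 or 179 (adjusted p up to 0.0692). With WT 164 and 165 left out together, the Adamts4 estimate was -1.08 and did not pass (adjusted p = 0.147).

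Adamts12, which cleaves cartilage oligomeric matrix protein, measured 3.47, 2.17, 0.947 and 1.36 CPM in WT and 0.888, 0.329, 0.956 and 0.580 CPM in E4bp4-LKO livers, with an overlap between WT 166 and E4bp4-LKO 145. Its log2FC was -1.54 (SE 0.44, adjusted p = 0.0494), and -0.74 without WT 164 and 165 (adjusted p = 0.361). Adamts10, which acts with fibrillin microfibrils, measured 11.8, 8.79, 8.03 and 8.32 CPM against 5.996, 5.93, 7.76 and 5.98 CPM (log2FC -0.53, SE 0.15, adjusted p = 0.0467). Among the fits that left out 1 mouse, Adamts12 passed only without WT 166 or 167 (adjusted p up to 0.128), and Adamts10 only without WT 166, WT 167 or E4bp4-LKO 145 (up to 0.126). The Adamts10 estimate was -0.34 without WT 164 and 165 (adjusted p = 0.249).

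Of the 4 Adamts genes that did not pass, 2 had separate groups. Adamtsl2, a microfibril protein without a protease domain, measured 31.3, 14.5, 12.5 and 15.04 CPM in WT and 5.03, 9.12, 8.79 and 10.3 CPM in E4bp4-LKO (log2FC -1.15, SE 0.32, adjusted p = 0.0557). Adamts2, which removes the amino-terminal propeptide of fibrillar procollagens, measured 36.9, 19.5, 21.3 and 22.2 CPM against 13.9, 15.6, 18.8 and 13.5 CPM (log2FC -0.69, SE 0.20, adjusted p = 0.0565). In both, WT 164 was far above the other WT livers. Adamtsl2 passed without WT 166 (adjusted p = 0.0492) and Adamts2 without WT 164 (adjusted p = 0.0473), and without WT 164 and 165 the estimates were -0.72 for Adamtsl2 and -0.49 for Adamts2 (adjusted p = 0.158 and 0.0765). Adamts5, an aggrecanase, was at 10.6 and 7.35 CPM in WT 164 and 165 and at 1.96 to 4.23 CPM in the other 6 livers (log2FC -0.99, adjusted p = 0.152), and its estimate was -0.10 without that pair. Adamts1, which cleaves versican, measured 20.0 ± 1.83 and 15.7 ± 3.44 CPM (SD, n = 4; log2FC -0.36, adjusted p = 0.122), and passed without E4bp4-LKO 143 (adjusted p = 0.0202).

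In the plasminogen system an activator and the urokinase receptor fell, an inhibitor rose and 1 of the 4 genes did not pass, with a median log2FC of -0.88. Plat, the tissue-type activator, measured 7.34, 4.58, 3.75 and 3.11 CPM in WT and 1.33, 0.988, 1.76 and 0.982 CPM in E4bp4-LKO livers, without overlap. Its log2FC was -1.89 (SE 0.30, adjusted p = 0.00537), a level 3.70-fold lower, and it passed without any single mouse and without WT 164 and 165 (-1.43, adjusted p = 0.0204). Plaur, the receptor that holds urokinase at the cell surface, measured 3.61, 3.54, 3.61 and 2.83 CPM against 2.04, 1.52, 1.65 and 1.12 CPM (log2FC -1.10, SE 0.20, adjusted p = 0.00921). WT 164 did not stand apart for Plaur, and the estimate without WT 164 and 165 was -1.01 (adjusted p = 0.0576).

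Plau, the urokinase-type activator itself, measured 7.60, 5.68, 4.66 and 3.95 CPM in WT and 4.48, 2.90, 2.87 and 3.70 CPM in E4bp4-LKO. E4bp4-LKO 143 lay above WT 167, and the gene did not pass (log2FC -0.66, SE 0.22, adjusted p = 0.0815), though it did without WT 167 (adjusted p = 0.0412) and in DESeq2 (adjusted p = 0.0430). Its estimate was -0.30 without WT 164 and 165 (adjusted p = 0.499). Serpine2, or protease nexin-1, which inhibits thrombin, urokinase and tissue-type activator, measured 15.3, 8.39, 8.70 and 10.5 CPM in WT and 20.8, 19.4, 16.1 and 23.5 CPM in E4bp4-LKO livers. Every E4bp4-LKO liver was above every WT liver in CPM, while in FPKM WT 164 at 8.54 exceeded E4bp4-LKO 145 at 7.35. The log2FC was 0.89 (SE 0.19, adjusted p = 0.0182), and 1.06 without WT 164 and 165 (adjusted p = 0.00812). It did not pass without E4bp4-LKO 144 (adjusted p = 0.0521).

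Ratios of a protease to an inhibitor were read within each library. For Plau over Serpine2 the FPKM ratio ranged from 0.331 to 0.597 in WT livers and from 0.132 to 0.189 in E4bp4-LKO livers, and this was the only 1 of 6 ratios given in which the groups did not overlap. Both partners belong to the 35 genes, so that ratio repeats their own values. Mmp14 over Timp2 lay at 0.954 to 1.26 in WT livers, against 1.09 to 1.23 in E4bp4-LKO, and neither gene passed on its own (log2FC -0.51 for Mmp14 and -0.61 for Timp2). Mmp12 over Timp1 ranged from 2.54 to 3.96 in WT and from 1.49 to 4.43 in E4bp4-LKO.

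Mmp2 over Timp2 (0.290 to 0.466 against 0.168 to 0.335) and Adam17 over Timp3 (0.384 to 0.408 against 0.290 to 0.393) overlapped in part. Mmp9 over Timp1 lay at 0.0501 to 0.0748 in WT livers, against 0.0468 to 0.229 in E4bp4-LKO, on few counts of Mmp9.

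**Figure D4:**
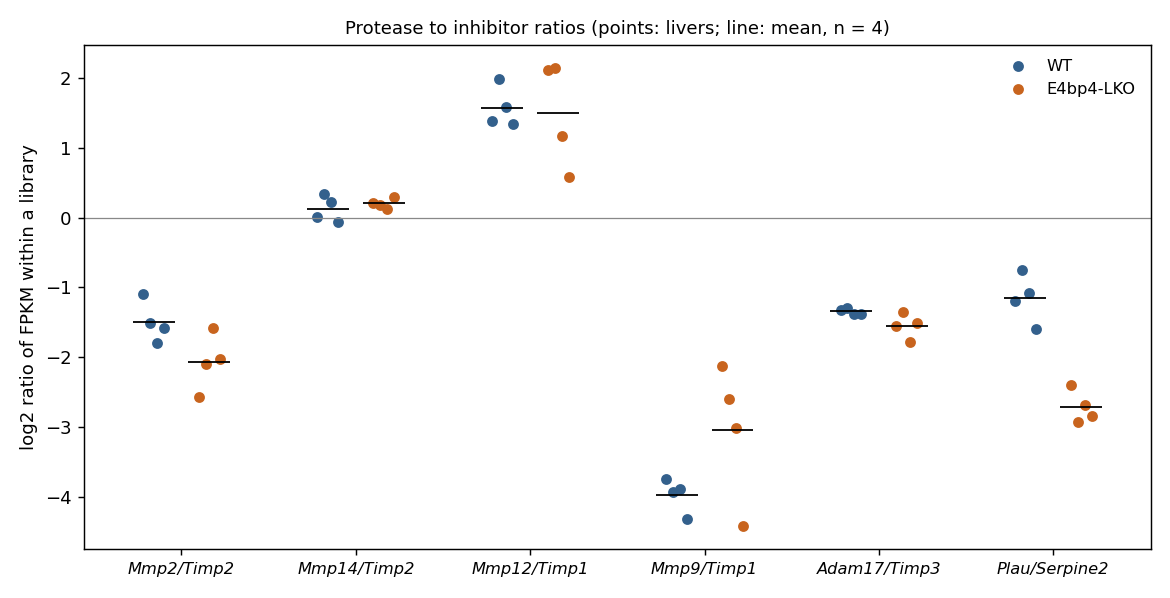
Log2 ratio of FPKM within each library (vertical axis) for 6 pairs of a protease and an inhibitor, with 4 WT and 4 E4bp4-LKO livers per pair and a line at the mean. The groups are separate for Plau/Serpine2 and overlap for the other 5 pairs.

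Further genes of the same pathways were read from the same fit, from lists written with earlier results of these data known. Over all genes tested, 6.48% were called lower and 4.36% higher. The tested genes called lower were 36.4% in the Mmp list, 18.2% in the Adam list, 0.0% in the Adamts list and 16.7% in the plasminogen list. Of 18 other Mmp genes and Mmp regulators, 11 were tested, of which 4 fell, 1 rose and 6 did not pass. Lcn2, whose product lipocalin-2 binds Mmp9, fell from 190 ± 59.6 to 58.9 ± 13.3 CPM (SD, n = 4; log2FC -1.69, SE 0.23, adjusted p = 0.00440). Bsg, which encodes the Mmp inducer basigin, fell by 0.37 on the log2 scale (adjusted p = 0.0172), and Cd44, a hyaluronan receptor that can hold Mmp9 at the cell surface, fell by 0.72 (adjusted p = 0.0180). Reck, a membrane-bound inhibitor of Mmp enzymes, rose from 3.67 ± 0.44 to 6.10 ± 1.31 CPM (log2FC 0.73, SE 0.17, adjusted p = 0.0243). Reck did not pass without WT 164 and 165 (adjusted p = 0.0618), nor did Bsg (0.0564) or Cd44 (0.107).

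Of 16 other Adam genes and Adam regulators, 11 were tested, with 2 lower, 1 higher and 8 not passing. The inactive rhomboid genes Rhbdf1 and Rhbdf2, which bring Adam17 to the cell surface, fell by 0.56 (adjusted p = 0.00557) and 0.37 (adjusted p = 0.0314) on the log2 scale. Tspan33, a tetraspanin that escorts Adam10, rose from 3.43 ± 0.43 to 7.62 ± 0.50 CPM (SD, n = 4; log2FC 1.15, SE 0.13, adjusted p = 0.00102). Of 17 other Adamts and related genes, 11 were tested, and Papln, or papilin, rose (0.60, adjusted p = 0.0395) while 0 fell. Without WT 164 and 165, Rhbdf2 (adjusted p = 0.145) and Papln (0.169) did not pass.

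Of 19 other plasminogen system genes, 18 were tested, with 3 lower, 1 higher and 14 not passing, and a median log2FC of -0.11. Anxa2 and S100a10, whose products form a cell-surface complex that binds plasminogen and tissue-type activator, fell by 1.02 (adjusted p = 0.00309) and 0.53 (adjusted p = 0.00979) on the log2 scale. Serpinb6a, an intracellular serpin, fell by 0.78 (adjusted p = 0.0479) and did not pass without WT 164 and 165 (adjusted p = 0.239). Klkb1, plasma prekallikrein made by hepatocytes, rose from 105 ± 10.5 to 173 ± 17.4 CPM (SD, n = 4; log2FC 0.72, SE 0.10, adjusted p = 0.00282). Plg, plasminogen itself, measured 1392 ± 263 and 1997 ± 335 CPM and did not pass (log2FC 0.52, adjusted p = 0.0633).

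Markers of the cells that can express these genes were read beside them, where 6.48% of all genes tested were called lower and 4.36% higher. The marker lists were also written with earlier results of these data known. The 9 macrophage markers summed to 687 to 1030 CPM in WT and 508 to 692 CPM in E4bp4-LKO, with 4 of 9 lower, and WT 164 was the highest library. This list was not uniform. Marco was the 1 estimate above 0 (log2FC 1.755, adjusted p = 0.173), and Adgre1 (-0.14) and Clec4f (-0.03) lay near 0. The 9 stellate cell markers summed to 689 to 799 CPM and 564 to 659 CPM, with 4 of 9 lower and WT 164 again the highest. Of the stellate cell estimates, 2 lay above 0. Without WT 164 and 165, 1 of the 4 macrophage markers (Trem2, adjusted p = 0.0223) and 0 of the 4 stellate cell markers still passed. The 6 hepatocyte markers all had estimates above 0, and 1, Serpina1a, was higher (log2FC 0.55, adjusted p = 0.0283) but did not pass without WT 164 and 165 (adjusted p = 0.0714). The 7 endothelial markers (205 to 246 and 205 to 312 CPM), the 6 cholangiocyte markers (35.3 to 64.0 and 33.8 to 54.4 CPM) and the 7 T and NK cell markers, with Trac at 0 (4.64 to 6.51 and 5.53 to 7.30 CPM) had 0 members that passed. The neutrophil markers summed to 5.36 to 12.0 CPM in WT and 5.30 to 15.2 CPM in E4bp4-LKO, 4 of 8 were tested and 0 passed, with Ly6g at 0 in all libraries. The 5 mesothelial markers summed to 1.34 to 11.3 CPM in WT and 0.481 to 4.42 CPM in E4bp4-LKO, and 0 passed. The part of these cell types in the results above was not tested.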

How the data were processed

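RNA sequencing of liver from 8 mice was used, 1 library each. Per the labels' protocols, RNA was enriched by oligo-dT selection or rRNA depletion and primed with random hexamers, and the submitters' processing notes name HISAT2. No aligner version, quantifier, annotation or build was given in the sources used here. Expected counts are the authors' deposited estimates per gene and carry no normalization. Fractional values made up 25.9% to 27.3% of entries and occurred in 9 of the 35 genes. The FPKM values were scaled to length and library by the authors, per the file headers. For 26 isoform entries, counts were summed into the gene with the same RefSeq accession. A gene absent from a library's table was set to 0. No library was a copy of another (lowest chi-square per degree of freedom over pairs, 7.52).

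Rounded expected counts were fitted in R 4.3.3 with edgeR 4.0.16 (filterByExpr with minimum count 10 and minimum total 15, TMM, robust glmQLFit, glmQLFTest), two-sided, with Benjamini-Hochberg adjustment over 13244 genes and a threshold of 0.05. The SE is the absolute log2 fold change over the square root of F. Of the 31 genes tested, 29 had at least 10 counts in all 8 libraries (not Mmp9 and Adamts4).

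The genes, lists and tests were chosen with earlier results of these data known. By the rule for named genes, all 35 are named, with values by library where a gene passed or its groups did not overlap, and each other list gives at most 4 genes that passed, by smallest p. Plg, Mmp27 and Ctsk fall outside that rule and were chosen after their values were seen. Of the planned ratios of protease to inhibitor, 1 is not reported here.

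Alternatives were DESeq2 1.42.0, edgeR with DESeq2's size factors, edgeR without a filter on low counts or with 5 CPM required in 4 libraries, limma 3.58.1 with trend on log2(FPKM + 1) and log2(FPKM + 0.1) for genes at 1 FPKM in 4 libraries, the former also without filter, and each mouse left out. Scaling by library totals alone, and leaving out WT 164 and 165 together, were chosen after seeing the data. On counts simulated for this comparison with 13162 genes fitted, edgeR recovered 61.2% of the 1.5-fold, 88.1% of the 2-fold and 97.0% of the 4-fold changes. It also called 12 unchanged genes. The changed genes had means above 1 CPM and each gene varied independently. These rates therefore do not cover scarcer genes or livers that differ in many genes together, such as WT 164.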

Additional observations from a re-analysis of the deposited data

Results flagged for a closer look

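Within each group of 4 livers, the gap between the most extreme liver and the nearest other was compared with the group's range for each of the 31 tested genes, by Dixon's criterion at 95%. Chance gives about 1 case in 20 groups, or 3.1 in the 62 groups examined, and 5 were found.

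WT 164 stood above the other WT livers for Adam15 (11.6 CPM against 7.62 to 7.93), Adamts2 (36.9 CPM against 19.5 to 22.2) and Adamtsl2 (31.3 CPM against 12.5 to 15.04). E4bp4-LKO 145 stood above the other E4bp4-LKO livers for Adamts10 (7.76 CPM against 5.93 to 5.996). WT 167 stood below the other WT livers for Plaur, at 2.83 CPM against 3.54 to 3.61.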

How the results depend on the processing

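No paired analysis was possible because the mouse numbers are not shared between the groups. Over the 31 tested genes and all alternatives, 497 values were recomputed, of which 419 kept their direction and side of the threshold, 45 lost the call, 23 gained one and 10 changed sign. A filter at 5 CPM left 3 of the 12 lower genes to test (not Mmp13, Timp1, Adam8, Adam12, Adamts4, Adamts9, Adamts12, Plat and Plaur), and the filtered FPKM fits left 7 (not Adam8, Adam12, Adamts4, Adamts9 and Adamts12), so their lower counts there are no lost calls. For other differences the cause was not tested. Genes called lower over the whole table numbered 858, and 1660 on library totals without TMM, 1449 on log2(FPKM + 0.1), 1423 on log2(FPKM + 1), 205 without WT 164 and 165, and 271 to 932 with 1 mouse left out. Genes called higher numbered 578, and 972 by DESeq2, 291 on library totals, 261 on both filtered FPKM scales, 210 on log2(FPKM + 1) without filter, 182 without WT 164 and 165, and 235 to 608 with 1 mouse left out. Of the 35 genes, 12 were lower, and 4 with the filter at 5 CPM, under which 17 were tested, 3 without WT 164 and 165, and 6 to 14 with 1 mouse left out. The 1 higher gene became 0 on log2(FPKM + 1) without filter and 0 to 1 with 1 mouse left out, and the same held for the plasminogen activators alone. Lower Mmp genes were 3, and 5 by DESeq2 (with Mmp7, which filterByExpr left out) and on log2(FPKM + 0.1), 0 without WT 164 and 165, and 2 to 4 with 1 mouse left out. Lower Timp genes were 1, and 2 by DESeq2, on library totals and on log2(FPKM + 0.1), and 0 at 5 CPM, where Timp1 was not tested. Lower Adam genes were 2, and 0 at 5 CPM and on both filtered FPKM fits, where neither gene was tested, and 0 on log2(FPKM + 1) without filter and without WT 164 and 165, 1 without the low-count filter, and 0 to 2 with 1 mouse left out. Lower Adamts genes were 4, and 2 at 5 CPM and on log2(FPKM + 1) without filter, 1 without WT 164 and 165, and 1 to 5 with 1 mouse left out. Lower plasminogen activator genes were 2, and 0 at 5 CPM, where neither was tested, 1 without WT 164 and 165, and 2 to 3 with 1 mouse left out. Changes of sign were in Mmp19 (-0.078 on library totals, -0.084 on log2(FPKM + 0.1), -0.080 on both log2(FPKM + 1) fits), Timp3 (0.062 without WT 164 and 165) and Adam9 (-0.126 on library totals, -0.125 on log2(FPKM + 0.1), -0.120 on both log2(FPKM + 1) fits, -0.0044 to 0.059 with 1 mouse left out, the lowest without E4bp4-LKO 179). Mmp3, Mmp7 and Mmp8 fell under the filter on low counts, and in the unfiltered edgeR fit none of the 3 passed (adjusted p = 0.993, 0.0742 and 0.175).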

Other observations

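Cathepsins, the lysosomal proteases, and cystatins, their inhibitors, were read from the same edgeR fit. Of 16 genes, 14 were tested, of which 5 fell, 0 rose and 9 did not pass, with a median log2FC of -0.25 beside 0.01 for all genes tested. The lower ones were 35.7% of those tested, where 6.48% of all genes were called lower and 4.36% higher. This list too was written with earlier results of these data known. Cstb, which encodes the intracellular inhibitor cystatin B, measured 69.6, 70.4, 55.2 and 52.1 CPM in WT and 39.2, 32.2, 35.9 and 36.5 CPM in E4bp4-LKO livers, and it fell (log2FC -0.78, SE 0.11, adjusted p = 0.00309). Every E4bp4-LKO liver lay below every WT liver, and it also passed without WT 164 and 165 (adjusted p = 0.0102). Ctsd, an aspartic protease of lysosomes, fell by 0.43 on the log2 scale (adjusted p = 0.0173, and 0.0417 without WT 164 and 165). Ctss, a cathepsin of antigen-presenting cells, fell by 0.86 (adjusted p = 0.0247), and Ctsb by 0.36 (adjusted p = 0.0299). Both missed the threshold without WT 164 and 165 (adjusted p = 0.103 and 0.0885). Ctsk, a collagen-degrading cathepsin, measured 2.98 ± 1.76 and 1.55 ± 0.40 CPM (SD, n = 4) and did not pass (adjusted p = 0.132).

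Of 23 substrates and bound ligands that the proteases shed or free, 20 were tested, with 4 lower, 2 higher and 14 not passing, and a median log2FC of -0.23. The lower ones were 20.0% of those tested, where 6.48% of all genes were called lower and 4.36% higher. Earlier results of these data were known when this list was written. Egfr, the epidermal growth factor receptor, measured 116.3, 105.1, 101.7 and 118.2 CPM in WT and 266.9, 179.9, 264.1 and 450.6 CPM in E4bp4-LKO livers, and it rose (log2FC 1.40, SE 0.24, adjusted p = 0.00965). The groups were separate, with the widest spread among E4bp4-LKO livers. The membrane-bound chemokines Cx3cl1 and Cxcl16, which Adam10 and Adam17 release, fell by 1.31 (adjusted p = 0.0221) and 0.64 (adjusted p = 0.0335) on the log2 scale. Axl, a receptor tyrosine kinase that is shed from the cell surface, fell by 0.60 (adjusted p = 0.0340). Without WT 164 and 165, the adjusted p was 0.143 for Egfr, 0.0554 for Cx3cl1, 0.174 for Cxcl16 and 0.219 for Axl. The Egfr estimate in that fit was again 1.40, and Egfr passed whichever single mouse was left out.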
